A study of Mus musculus with 8 samples.

Results

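Expression of 10 stress-response genes was examined in CD8 T cells and in accompanying myeloid cells of mouse MC38 tumours, a transplanted colon carcinoma line. The genes were taken by symbol. Of these, 6 encode subunits of the transcription factor AP-1 (Fos, Fosb, Jun, Junb, Jund and Atf3) and 4 encode heat shock chaperones or co-chaperones (Hspa1a, Hspa1b, Dnajb1 and Hsph1). They are 10 of the 31053 genes counted in the libraries of the first experiment and of the 32285 counted in the second, and all 10 were detected in every library.

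All animals were wild type C57BL/6 mice with palpable MC38 tumours, and each experiment contributed 2 gene expression libraries made with a droplet 5' assay, with 1 library per group. In experiment 1, tumours were collected on day 7 from mice given buffer, or from mice given rhIL-7-hyFc, a human interleukin-7 fused to an Fc domain, at 10 mg/kg under the skin. In experiment 2 the same agent was given under the skin at 1.25 mg/kg, either alone or followed from day 3 by an intravenous T cell engager (TCE), a bispecific antibody that binds mouse PD-L1 and CD3ε; these tumours were taken 24 h after the last treatment. All tumours were digested with collagenase D and DNase I for 30 min at 37 °C, after which CD8 T cells were isolated with IMag beads in experiment 1 and by FACS for CD45, TCRb and CD8a in experiment 2. How many mice each library pools is not given in the sources used. The libraries are called buffer, 10 mg/kg, 1.25 mg/kg and TCE below, and 4 values in a row follow that order. Ratios were formed only within an experiment, values of the 2 experiments set side by side are a description, and no test between groups was possible: each ratio below compares 2 libraries, its interval covers counting error only, and a difference of at least 1.5-fold is called higher or lower as a rule of size.

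A barcode was taken as a CD8 T cell when it held at least 1 Cd8a or Cd8b1 UMI and at least 1 Cd3d, Cd3e or Cd3g UMI, and as a myeloid cell when it held at least 5 UMIs of Lyz2, C1qa, C1qb and C1qc together and none of the 3 Cd3 genes. The libraries held 5589 to 12560 barcodes and 47308214 to 118191371 UMIs. There were 3975, 5622, 10888 and 10933 CD8 T barcodes, with a median of 8456, 9726, 7138.5 and 6700 UMIs. A level is the UMIs of a gene over all UMIs of the same barcodes, scaled to 1000000 UMIs (CPM). Myeloid barcodes numbered 123, 128, 666 and 73. All 12 T cell markers outside the gate were detected in the CD8 T barcodes of every library, at 3499 to 4656 CPM in all, against 27.9 to 174 in myeloid barcodes. All 12 macrophage markers outside the gate were detected in the myeloid barcodes, at 16138 to 24138 CPM. Neutrophil markers summed to 297, 484 and 788 CPM in the first 3 myeloid sets and to 3588 in that of the TCE library, so its 73 barcodes are not a pure macrophage set. Any pair of libraries shared 45 to 195 barcode sequences.

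The CD8 T barcodes were not free of myeloid RNA, and its amount differed between libraries. The 12 macrophage markers summed to 1685, 603, 5255 and 1233 CPM in CD8 T barcodes. Of the CD8 T barcodes, 50.8%, 88.9%, 58.4% and 91.6% held no UMI of Lyz2, C1qa, C1qb or C1qc, and in these barcodes the macrophage markers summed to 626, 330, 612 and 275 CPM. At the other end, 5.16%, 1.41%, 29.2% and 6.41% held 5 or more such UMIs. The median depth of these was 10686, 18310, 16968.5 and 19662 UMIs, against 8139, 9644.5, 5407 and 6443 in the barcodes with none. The main results in CD8 T barcodes are therefore given again for the barcodes without a myeloid UMI.

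AP-1 is a dimer of Fos, Jun and ATF family proteins. Fos, Fosb, Jun, Junb and Atf3 are immediate early genes that are transcribed within minutes of antigen receptor, cytokine or stress signals, while Jund is expressed more steadily. The heat shock genes are switched on by the factor HSF1 when proteins misfold: Hspa1a and Hspa1b encode the inducible HSP70, Dnajb1 encodes an HSP40 that hands clients to HSP70, and Hsph1 encodes HSP110, its nucleotide exchange factor. Both groups are also known to be induced when tissue is digested with enzymes at 37 °C, a step that all 4 libraries shared.

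Promoter sequences are shown for the members that differed most in CD8 T barcodes and for Hsph1, and to show how close the HSP70 pair is. The following stretches lie upstream of the RefSeq transcription start, are read from the GRCm38.p6 reference on the gene's own strand, and carry a heat shock element (GAANNTTC or TTCNNGAA) or the core of a cyclic AMP response element (TGACG on either strand) in capitals. The Hsph1 stretch is the 30 bases around its element, and the others are the 120 bases just before the start. By the GENCODE annotation, 26 of the Hsph1 bases and 7 of the Atf3 bases lie in an exon, and the whole Atf3 stretch lies within the gene.
Hspa1a, chr17:34972157-34972276, minus strand: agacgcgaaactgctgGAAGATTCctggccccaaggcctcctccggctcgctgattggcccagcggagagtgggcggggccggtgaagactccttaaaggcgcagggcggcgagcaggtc
Hspa1b, chr17:34959239-34959358, minus strand: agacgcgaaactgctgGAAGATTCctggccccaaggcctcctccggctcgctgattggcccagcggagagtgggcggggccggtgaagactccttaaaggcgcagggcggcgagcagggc
Hsph1, chr5:149636351-149636380, minus strand: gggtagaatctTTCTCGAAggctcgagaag
Fos, chr12:85473770-85473889, plus strand: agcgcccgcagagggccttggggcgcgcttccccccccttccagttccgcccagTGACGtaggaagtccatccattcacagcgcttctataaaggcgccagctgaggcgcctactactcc
Atf3, chr1:191183334-191183453, minus strand: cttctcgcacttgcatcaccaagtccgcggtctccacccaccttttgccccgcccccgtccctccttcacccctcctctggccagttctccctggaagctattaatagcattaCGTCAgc

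In the 250 bases before the start, Hspa1a, Hspa1b and Hsph1 held a heat shock element, and so did Jun. Such an element, read on both strands, was present in 12.8% of all 32851 promoter windows of that length. The core TGACG was found for Fos, Fosb, Junb, Atf3 and Dnajb1, and in 17.8% of all windows. No member held the AP-1 site TGANTCA or the full element TGACGTCA, which were in 6.75% and 1.55% of windows. Hspa1a and Hspa1b differed at 1 of the 120 printed bases and at 1 of the first 50 transcribed bases, and 49.3% of the 90-base windows of the Hspa1a transcript occur unchanged in Hspa1b. The split of reads between these 2 genes is therefore uncertain, and their sum is given beside them.

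Atf3, Hspa1a and Hspa1b were the members that differed most between the CD8 T barcodes of experiment 1, and all were lower after rhIL-7-hyFc 10 mg/kg. Of the 10 members, 6 were lower and 0 were higher than in buffer, where 21.4% of all 9067 genes measured at 5 CPM or more in either library were lower and 6.33% were higher. The 6 were Atf3, Fos and Jun among the AP-1 genes and Hspa1a, Hspa1b and Hsph1 among the heat shock genes. All genes together had a median log2 ratio of -0.21, the AP-1 members -0.59 and the heat shock members -1.78.

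Atf3, a repressor and activator induced by many stresses (chr1:191170296-191218039), stood at 117 CPM in buffer (95% Poisson interval 114 to 121, 4829 UMIs) and at 22.8 after rhIL-7-hyFc (21.6 to 24.0, 1394 UMIs). This is 5.15-fold lower (95% interval of the ratio 4.85 to 5.47). In the CD8 T barcodes without a myeloid UMI it stood at 55.9 and 7.50 CPM, 7.46-fold lower (6.65 to 8.38). The absolute level was thus lower in both libraries once barcodes with a myeloid UMI were set aside, while the ratio was larger. Macrophage markers still summed to 626 and 330 CPM in the barcodes that remained, and their part in this ratio was not tested.

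Fos (chr12:85473890-85477273) stood at 416 CPM in buffer and 247 after rhIL-7-hyFc, 1.68-fold lower (1.65 to 1.72). Jun (chr4:95049034-95052222), its dimer partner, stood at 342 and 195, 1.75-fold lower (1.71 to 1.80). In barcodes without a myeloid UMI, Fos stood at 288 and 226 and was no longer past the rule (1.28-fold lower, 1.24 to 1.32), whereas Jun stood at 303 and 188 (1.61-fold lower, 1.56 to 1.67). Fos also missed 1.5-fold when TMM factors replaced total UMIs as the scale, at a log2 ratio of -0.48, and so did Jun, at -0.54.

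The other 3 AP-1 members did not reach 1.5-fold. Fosb (chr7:19302696-19310051) stood at 101 and 75.4 CPM. Junb (chr8:84974484-84978718) stood at 1775 and 1802, and Jund (chr8:70698949-70700616) at 310 and 285. Their ratios, rhIL-7-hyFc over buffer, were 0.746, 1.02 and 0.917, so the lower AP-1 level did not extend to the Jun family as a whole. The Fosb ratio is the least settled of these: it passed 1.5-fold when each barcode was weighted equally, at a log2 ratio of -0.97.

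Hspa1a (chr17:34969190-34972156) stood at 49.6 CPM in buffer and 8.20 after rhIL-7-hyFc, 6.05-fold lower (5.49 to 6.69). Hspa1b (chr17:34956436-34959238) stood at 12 and 2.01, 5.94-fold lower (4.87 to 7.30). Summed, the HSP70 pair went from 61.6 to 10.2 CPM, 6.03-fold lower (5.52 to 6.60). Hsph1 (chr5:149614287-149636376) stood at 60.2 and 30.2, 1.99-fold lower (1.88 to 2.12). Dnajb1 (chr8:83608193-83612653) did not differ past the rule, at 163 and 159 CPM (ratio 0.977, 0.947 to 1.01), although it encodes the co-chaperone of the same HSP70.

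Among CD8 T barcodes without a myeloid UMI, 5 of 10 members were lower and 0 higher, where 20.2% of all genes were lower and 6.97% higher. The 5 were Atf3, Jun, Hspa1a, Hspa1b and Hsph1. Here the HSP70 pair stood at 51.8 and 9.55 CPM (5.43-fold lower, 4.88 to 6.05), and Hsph1 at 61.9 and 30.3. Hspa1a, Hspa1b and Hsph1 were 5.37-, 5.73- and 2.04-fold lower there, against 6.05-, 5.94- and 1.99-fold in all CD8 T barcodes. Summed marker lists of other cell types also differed between the libraries of experiment 1, but each of the next 2 sums rested mostly on 1 gene. In CD8 T barcodes the neutrophil list summed to 138 and 24.8 CPM, of which Il1r2 alone made up 124 and 20.6. The tumour epithelial list summed to 64.7 and 16.9, of which Areg alone made up 53.5 and 9.57. The 10 dendritic cell markers summed to 645 and 706, of which Ccr7 alone made up 382 and 689. Of the 6 dendritic markers at 5 CPM or more, 5 were lower and 1 was higher, where 21.4% and 6.33% of all genes were. The part of these cell types in the members' levels was not tested.

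**Figure D1:**
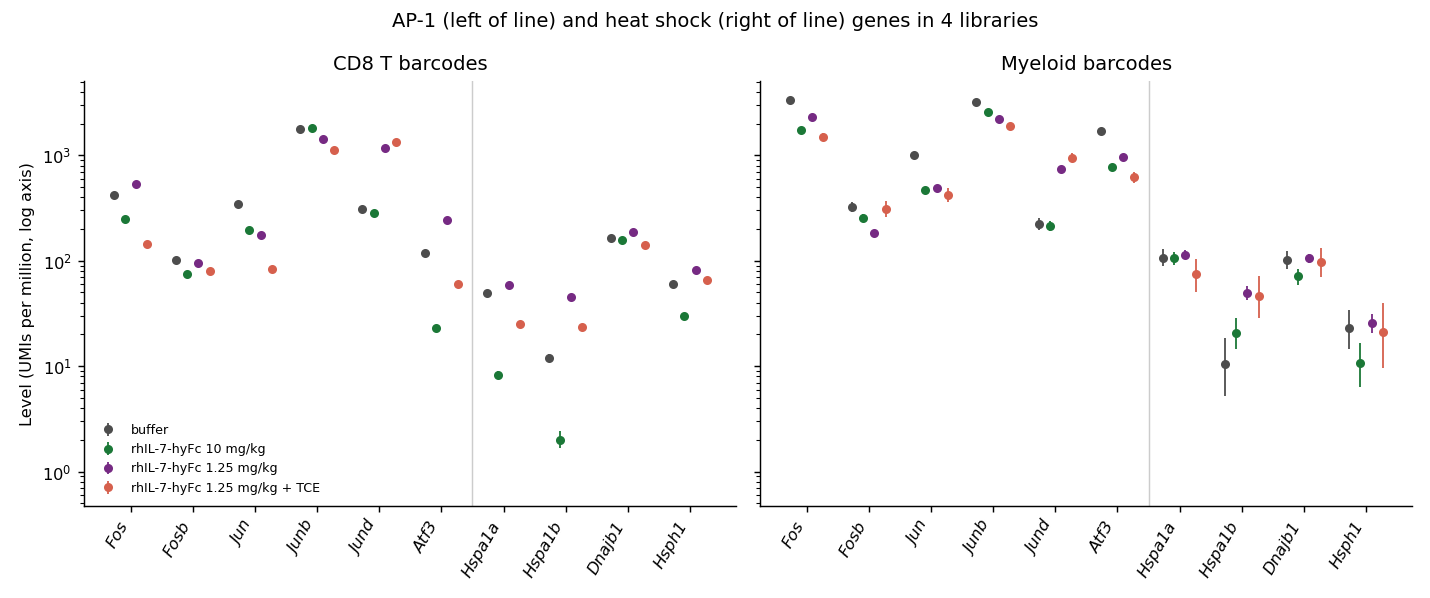
Level of each gene in the 4 libraries, in CPM on a log axis, for CD8 T barcodes and for myeloid barcodes (panels). Points are the 1 library of each group and bars are exact Poisson 95% intervals of the counts. In CD8 T barcodes the 10 mg/kg library lies below buffer for Atf3 (22.8 against 117), Hspa1a (8.20 against 49.6) and Hspa1b (2.01 against 12).

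In experiment 2, Fos and Atf3 were the members that differed most, and both were lower after the TCE was added. Of the 10 members, 5 were lower and 0 higher in CD8 T barcodes, where 9.01% of all 9308 genes were lower and 2.54% higher. The 5 were Fos, Atf3, Jun, Hspa1a and Hspa1b. The median log2 ratio was -0.72 for the AP-1 members, -0.68 for the heat shock members and 0.08 for all genes.

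Fos stood at 536 CPM without the TCE and at 145 with the TCE, 3.71-fold lower (3.64 to 3.78). Atf3 stood at 244 and 60.2, 4.06-fold lower (3.94 to 4.18). Jun stood at 176 and 83.3, 2.11-fold lower (2.05 to 2.17). These are also the members that moved most with myeloid UMIs, and the library without the TCE is the one in which 29.2% of CD8 T barcodes held 5 or more of them. In barcodes with none, Fos stood at 131 and 67.9 (1.93-fold lower, 1.86 to 2.01) and Atf3 at 33.9 and 17.1 (1.99-fold lower, 1.84 to 2.15). Jun stood at 78.0 and 59.7 there and did not reach 1.5-fold (1.31, 1.25 to 1.37).

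The HSP70 pair stood at 103 CPM without the TCE and 48.7 with it, 2.12-fold lower (2.04 to 2.19). Hspa1a alone stood at 58.2 and 25.3 (2.30-fold lower, 2.19 to 2.41) and Hspa1b at 44.8 and 23.4 (1.92-fold lower, 1.82 to 2.02). Among barcodes without a myeloid UMI the pair stood at 78.1 and 45.2, 1.73-fold lower (1.65 to 1.81). Dnajb1 stood at 189 and 142 in all CD8 T barcodes and Hsph1 at 81.0 and 66.2, both short of 1.5-fold.

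Fosb, Junb and Jund again did not pass the rule. Fosb stood at 96.2 and 79.7 CPM, Junb at 1428 and 1112, and Jund at 1162 and 1327. Without myeloid UMIs, 4 of 10 members were lower and 0 higher, where 3.52% of all genes were lower and 1.70% higher. Those 4 were Fos, Atf3, Hspa1a and Hspa1b, and Dnajb1 came close at 214 and 145 CPM (1.47-fold lower, 1.43 to 1.52).

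**Figure D2:**
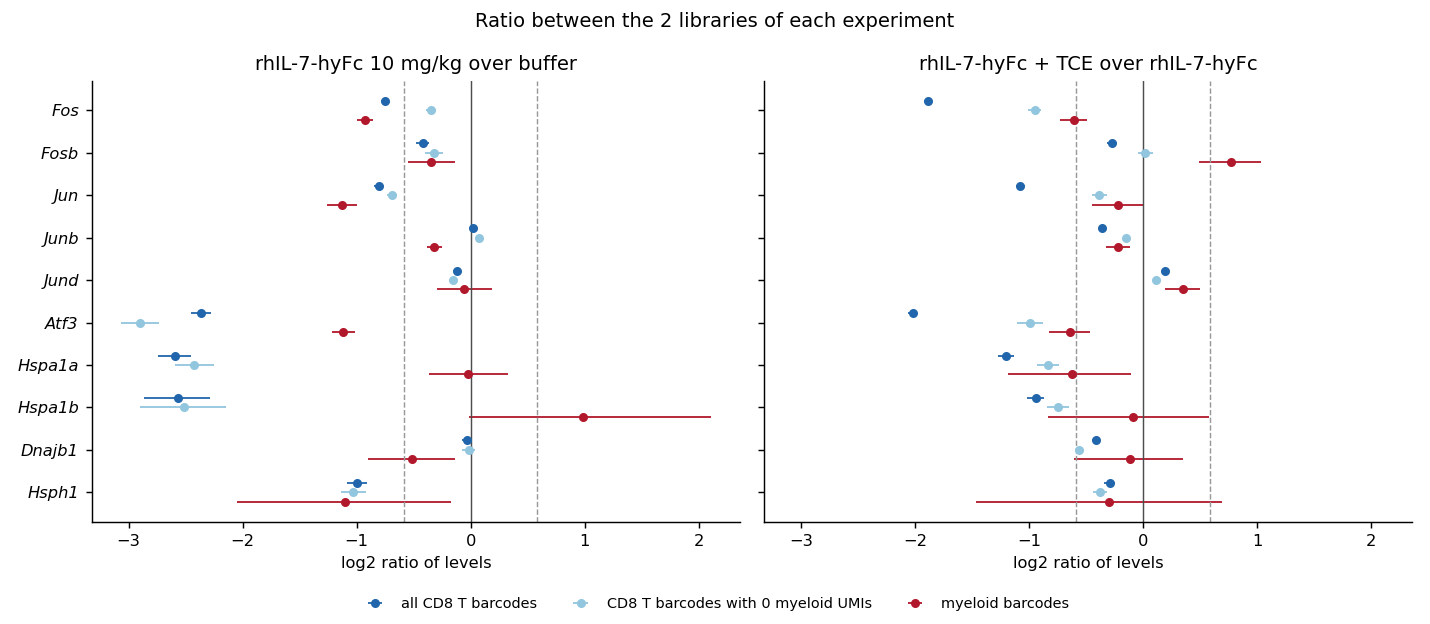
log2 ratio of levels between the 2 libraries of each experiment (panels) for each gene, in all CD8 T barcodes, in CD8 T barcodes with no myeloid UMI and in myeloid barcodes (colours). Bars are exact conditional 95% intervals, which cover counting error only. Fos in experiment 2 lies closer to 0 in the barcodes without a myeloid UMI (-0.95) than in all CD8 T barcodes (-1.89).

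Myeloid cells of the same droplet runs gave a second reading of each comparison. In experiment 1, 4 of 10 members were lower and 1 was higher after rhIL-7-hyFc, where 16.1% of all genes were lower and 11.8% higher. Fos stood at 3319 and 1744 CPM (1.90-fold lower, 1.81 to 2.00), Jun at 1015 and 465 (2.18-fold lower, 1.99 to 2.39) and Atf3 at 1694 and 781 (2.17-fold lower, 2.02 to 2.33). Hsph1 stood at 22.8 and 10.6 on 24 and 19 UMIs (2.15-fold lower, 1.13 to 4.15). Jun, Atf3 and Hsph1 were thus lower in both cell types of the 10 mg/kg library, also among CD8 T barcodes without a myeloid UMI, where Fos did not pass the rule. With TMM factors Jun, too, missed the rule in CD8 T barcodes.

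The HSP70 pair went the other way or not at all in myeloid barcodes of experiment 1. Hspa1a stood at 107 and 106 CPM (ratio 0.984, 0.775 to 1.25). Hspa1b stood at 10.4 and 20.7, on 11 and 37 UMIs, a ratio of 1.98 with an interval of 0.988 to 4.30 that reaches 1. This Hspa1b value rests on a few barcodes: without the 1% of barcodes with the most Hspa1b UMIs the log2 ratio was -0.19.

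In the myeloid barcodes of experiment 2, Fos, Atf3 and Hspa1a were lower and Fosb was higher with the TCE, where 24.6% of all genes were lower and 15.7% higher. Fos stood at 2283 and 1498 CPM (1.52-fold lower, 1.41 to 1.65) and Atf3 at 971 and 622 (1.56-fold lower, 1.38 to 1.77). Hspa1a stood at 114 and 74.3 on 437 and 32 UMIs (1.54-fold lower, 1.07 to 2.28), and Fosb at 183 and 311 (ratio 1.70, 1.41 to 2.05). With 3 of 10 lower against a background of 24.6%, the members' share was near that of all genes. The neutrophil markers that summed to 788 and 3588 CPM moved with this comparison, and their part in it was not tested.

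Within each library, Fos, Fosb, Jun and Atf3 were higher in myeloid than in CD8 T barcodes, whereas Hsph1 was lower in all 4 libraries and Dnajb1 in 3. Over the 4 libraries, 6, 6, 6 and 7 members were higher in myeloid barcodes, where 26.2%, 31.4%, 21.6% and 21.8% of all genes were. Lower were 2, 2, 3 and 1 members, where 34.3%, 30.1%, 39.3% and 46.2% of all genes were. A lower CPM can mean less RNA of that gene or more of others, and the scale does not tell these apart.

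Fos was 7.98-, 7.06-, 4.26- and 10.4-fold higher in myeloid than in CD8 T barcodes, and Atf3 14.4-, 34.2-, 3.97- and 10.3-fold. Fosb was 3.19-, 3.36-, 1.90- and 3.91-fold higher, and Jun 2.97-, 2.38-, 2.79- and 5.05-fold. For Fos and Atf3 the ratio was lower in the 1.25 mg/kg than in the TCE library, whose CD8 T barcodes held fewer macrophage marker UMIs. With CD8 T barcodes of under 5 myeloid UMIs in the ratio, the log2 value for Atf3 in the 1.25 mg/kg library went from 1.99 to 3.95. Junb was 1.79-, 1.55- and 1.71-fold higher in the buffer, 1.25 mg/kg and TCE libraries and 1.41-fold in the 10 mg/kg library. Jund was the exception among the AP-1 genes, with ratios of 0.716, 0.752, 0.644 and 0.718.

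Hsph1 stood at 22.8, 10.6, 25.6 and 20.9 CPM in myeloid barcodes and was 2.64-, 2.85-, 3.16- and 3.17-fold lower there than in CD8 T barcodes. Dnajb1 was 1.60-, 2.24-, 1.79- and 1.45-fold lower. The HSP70 pair was higher in myeloid barcodes, by 1.91-, 12.4-, 1.59- and 2.48-fold, where the CD8 T level of the 10 mg/kg library was 10.2 CPM against 61.6 in buffer. The 4 heat shock genes therefore did not share a cell type in which they were high.

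**Figure D3:**
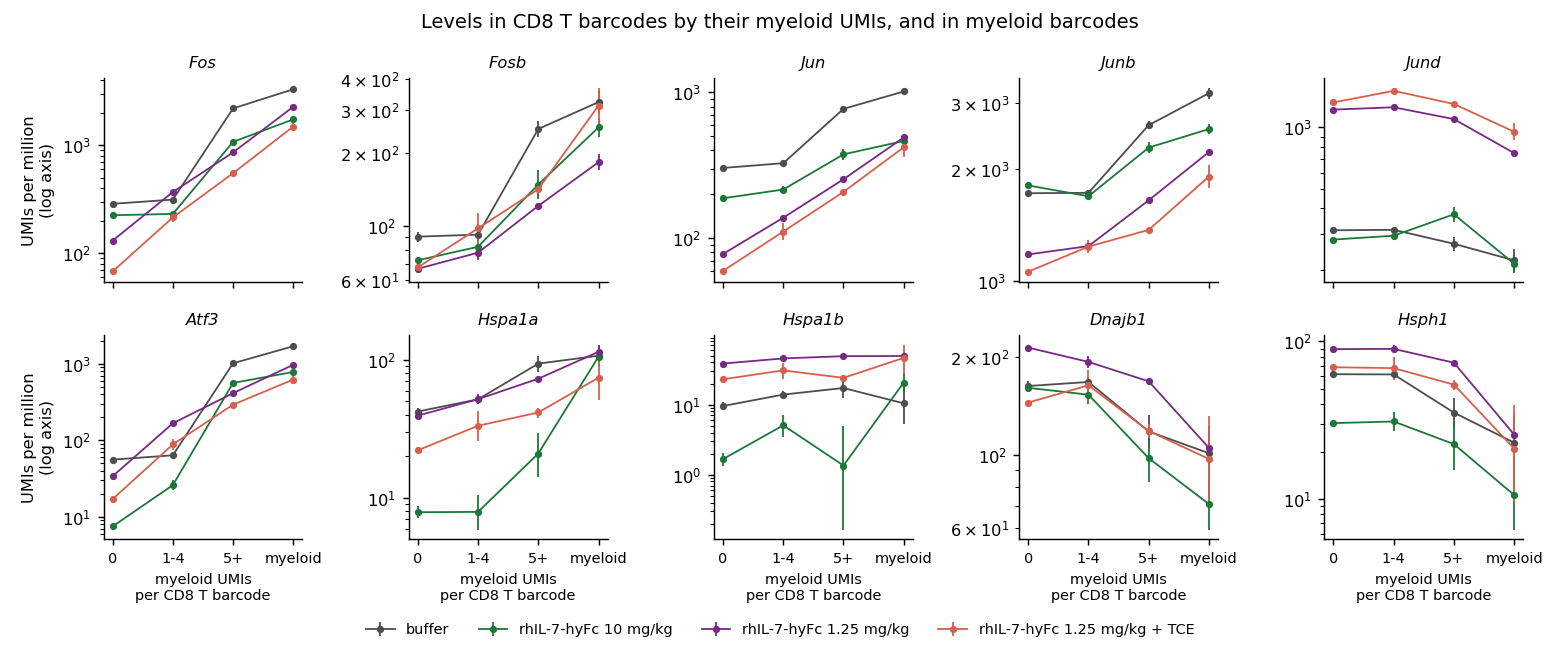
Level of each gene (CPM, log axis) in CD8 T barcodes grouped by their number of Lyz2, C1qa, C1qb and C1qc UMIs, and in myeloid barcodes, for the 4 libraries (colours). Bars are exact Poisson 95% intervals. Atf3 runs from 55.9, 7.50, 33.9 and 17.1 in barcodes with none to 1014, 561, 413 and 292 in barcodes with 5 or more, and Hsph1 runs the other way.

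Within CD8 T barcodes, Fos, Atf3, Jun and Fosb were higher where the barcode held 5 or more myeloid UMIs. Junb passed 1.5-fold in buffer alone, at 1718 CPM with none and 2611 with 5 or more, and Jund in no library (312, 281, 1223 and 1326 CPM with none, 268, 374, 1098 and 1303 with 5 or more). Fos stood at 288, 226, 131 and 67.9 CPM in barcodes with no myeloid UMI and at 2204, 1080, 862 and 553 in those with 5 or more. Across CD8 T barcodes thinned to 3000 UMIs, the correlation of Atf3 with the summed myeloid UMIs was 0.53, 0.51, 0.50 and 0.44, and that of Fos was 0.40, 0.18, 0.54 and 0.41. These are descriptions over barcodes of 1 library each. Hsph1 ran the other way but passed 1.5-fold in buffer alone, at 61.9, 30.3, 89.3 and 68.6 with none and 35.3, 22.3, 73.3 and 53.2 with 5 or more. Dnajb1 stood at 163, 161 and 214 CPM with none in the buffer, 10 mg/kg and 1.25 mg/kg libraries. With 5 or more it stood at 118, 98.0 and 169, past 1.5-fold at 10 mg/kg but not in buffer or at 1.25 mg/kg. Doublets were not removed, and whether a T and a myeloid cell shared these droplets was not tested.

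Shares of barcodes with a UMI were compared after thinning every barcode to 3000 UMIs, with exact Clopper-Pearson 95% intervals. Atf3 was found in 14.8% (13.6 to 16.0), 2.58% (2.17 to 3.03), 22.9% (22.1 to 23.7) and 6.63% (6.16 to 7.13) of CD8 T barcodes. Without thinning these shares were 26.7%, 5.94%, 34.7% and 11.6%. In barcodes with no myeloid UMI the thinned shares were 11%, 1.61%, 5.14% and 3.61%, and in myeloid barcodes 84.7%, 80.8%, 75.4% and 68.9%. Atf3 was thus found in most myeloid barcodes and in few T cell barcodes of every library, and among the T cells the 10 mg/kg library was below buffer.

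Fos was found in 45.7% and 42.6% of CD8 T barcodes of experiment 1, a smaller gap than that of its levels, and in 40.9% and 15.3% in experiment 2. Without thinning the Fos shares were 66.6%, 70.2%, 53.8% and 24.4%. Among barcodes with no myeloid UMI the thinned shares were 43.4%, 42.0%, 22.3% and 11.6%. The gap in experiment 2 was present with and without the barcodes that held a myeloid UMI. Macrophage markers still summed to 612 and 275 CPM in the barcodes without one, and their part in the gap was not tested. At least 1 AP-1 UMI was found in 98.6% to 99.3% of CD8 T barcodes, and Junb alone in 84.5% to 95.6%, so presence of an AP-1 transcript as such separated no library.

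At least 1 HSP70 UMI (Hspa1a or Hspa1b) was found in 3.84% (3.21 to 4.55), 1.01% (0.763 to 1.32), 11.6% (11 to 12.2) and 4.78% (4.38 to 5.20) of thinned CD8 T barcodes, and in 7.95%, 2.76%, 21.7% and 7.99% without thinning. Hsph1 was found in 12.3%, 7.87%, 18.9% and 15.7% after thinning, and in 30.6%, 23.7%, 40.4% and 33.3% before. Dnajb1 was found in 34.8%, 38.2%, 40.5% and 33.0%, and in 63.5%, 76.1%, 70.6% and 59.1% before. The inducible pair was thus a feature of few barcodes in each library, while its co-chaperone Dnajb1 was widespread.

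HSP70 transcripts were concentrated in a small set of CD8 T barcodes. The 1% of barcodes with the most Hspa1a UMIs held 78.4%, 87.2%, 35.3% and 67.6% of all Hspa1a UMIs, against 17.5%, 6.17%, 10.8% and 9.79% for Dnajb1. At a threshold of 10 HSP70 UMIs, chosen after the values were seen, there were 48, 10, 285 and 85 such barcodes. They made up 1.21% (0.892 to 1.60), 0.178% (0.0853 to 0.327), 2.62% (2.33 to 2.94) and 0.777% (0.621 to 0.960) of CD8 T barcodes and held 81.4%, 58.8%, 54.7% and 57.8% of the pair's UMIs. The distribution has no gap at the threshold: 20, 12, 320 and 109 barcodes held 5 to 9 UMIs and 23, 2, 180 and 47 held 10 to 19.

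**Figure D4:**
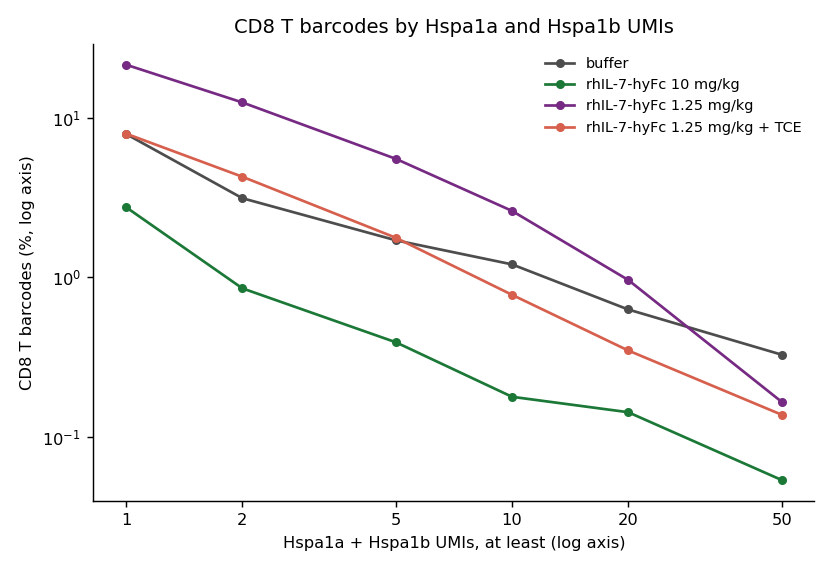
Percent of CD8 T barcodes (log axis) that held at least a given number of Hspa1a plus Hspa1b UMIs (log axis) in each library. The curves fall steadily. The 10 mg/kg library lies below buffer at every threshold drawn, with 2.76% against 7.95% at 1 UMI and 0.0534% against 0.327% at 50.

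The difference between libraries lay in the rest of the barcodes as well as in the high ones. Without the barcodes of 10 or more HSP70 UMIs the pair stood at 11.6 and 4.21 CPM in experiment 1, 2.76-fold lower instead of 6.03-fold, and at 48.7 and 20.8 in experiment 2, 2.35-fold lower. The counting interval of the full ratio understates its error, because the 48 and 10 high barcodes of experiment 1, and not single UMIs, carried most of it. The top barcode of the buffer library alone held 236 of its 2534 HSP70 UMIs.

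Over all CD8 T barcodes, those high in HSP70 were high in its partners, and in Jun, Fos and Atf3, too. Dnajb1 stood at 1418, 1040, 535 and 787 CPM in the high barcodes and at 143, 157, 173 and 135 in the rest. Hsph1 stood at 687, 391, 319 and 595 against 50.4, 29.5, 70.5 and 61.1. Hspb1, a small heat shock protein, stood at 262, 133, 75.3 and 220 against 2.02, 0.525, 4.01 and 2.35, and Hsp90aa1, the inducible HSP90, at 2781, 2639, 1344 and 1695 against 463, 367, 550 and 387. Among the AP-1 genes, Jun stood at 1144, 693, 411 and 505 CPM in the high barcodes against 330, 194, 165 and 79.2 in the rest. Fos stood at 1291, 818, 1123 and 529 against 402, 246, 510 and 141, and Atf3 at 526, 80, 475 and 300 against 111, 22.7, 234 and 57.9.

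Part of the high barcodes also held myeloid RNA. Those without a myeloid UMI numbered 24, 9, 74 and 64, or 1.19%, 0.18%, 1.16% and 0.639% of such CD8 T barcodes, and held 81.6%, 62.3%, 53.5% and 65.1% of their HSP70 UMIs. In these, Dnajb1 stood at 1617, 1060, 1301 and 1061 CPM against 144, 160, 198 and 139 in the rest, Hsph1 at 835, 389, 786 and 872 against 51.7, 29.6, 78.9 and 63, and Jun at 917, 759, 456 and 499 against 295, 187, 72.3 and 56.7. Fos stood at 356, 895, 489 and 256 there against 287, 224, 126 and 66.6, short of 1.5-fold in buffer. Atf3 stood at 89.8, 38.9, 130 and 139 against 55.5, 7.44, 32.5 and 16.2. Over all CD8 T barcodes, the high ones had a median of 11515.5, 9763.5, 15308 and 8791 UMIs, against 8417, 9726, 7011 and 6694 in the rest. Their median mitochondrial share was 0.970%, 1.84%, 0.771% and 0.755% against 1.19%, 1.74%, 0.876% and 0.854%. Their T cell receptors were mixed: the 31, 7, 113 and 44 with a single productive beta chain fell into 22, 7, 87 and 39 clonotypes.

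The partners were also found more often in barcodes with any HSP70 UMI, among thinned barcodes with no myeloid UMI, a set that includes the high barcodes. Hsph1 was found in 53.2%, 20.8%, 40.0% and 38.7% of barcodes with an HSP70 UMI and in 10.2%, 7.75%, 18.3% and 14.8% of those without. Dnajb1 was found in 66.0%, 54.2%, 65.9% and 61.5% against 33.5%, 38.4%, 41.1% and 32.1%. All 4 libraries showed both gaps. The sets with an HSP70 UMI were small in experiment 1, at 47 and 48 barcodes, against 452 and 382 in experiment 2.

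Correlations across CD8 T barcodes were mostly lower between the groups than within them. The median correlation was 0.32, 0.087, 0.21 and 0.23 over the 6 pairs of heat shock genes and 0.20, 0.12, 0.14 and 0.19 over the 15 pairs of AP-1 genes. Without myeloid UMIs these medians were 0.35, 0.086, 0.26 and 0.24 and 0.14, 0.099, 0.11 and 0.15. Over the 24 pairs that join the groups the median over all CD8 T barcodes was 0.031, 0.031, 0.047 and 0.063, although Jun and Hspa1a reached 0.16, 0.049, 0.20 and 0.21. Fos and Jun correlated at 0.38, 0.20, 0.36 and 0.31, and Hspa1a and Hspa1b at 0.71, 0.61, 0.57 and 0.65, a pair whose reads cannot be split with certainty. All points of a correlation come from 1 library and share its depth, and in sparse counts values this low describe little.

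Of 7087 genes, those that followed the summed AP-1 members most closely, by the lowest correlation over the 4 libraries, were Zfp36, Nr4a1, Dusp1, Ier2, Egr1, Nfkbia, Csrnp1 and Gadd45b, at 0.28 to 0.17. The closest to the summed heat shock members were Hspa8, Hsp90aa1, Klf2, Ubb, Nr4a1, Ppp1r15a, Dnaja1 and Sertad1, at 0.094 to 0.053. Restricted to barcodes without a myeloid UMI, Zfp36 took the place of Sertad1 in the heat shock list and Tnfaip3 that of Egr1 in the AP-1 list.

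Clonal expansion separated the AP-1 genes. A clonotype is the set of barcodes with the same beta chain V gene and CDR3 nucleotides, and 57.9%, 8.19%, 40.1% and 43.9% of CD8 T barcodes with a single productive beta chain lay in clonotypes of 5 or more. Levels by clonotype and by Pdcd1 or cycling state are over barcodes of at least 3000 UMIs. Among barcodes without a myeloid UMI, Atf3 stood at 27.6, 3.63, 11.3 and 4.09 CPM in clonotypes of 1 barcode and at 47.6, 27.7, 41.7 and 29.1 in clonotypes of 5 or more. The ratios were 1.72 (1.40 to 2.14), 7.62 (5.92 to 9.80), 3.67 (3.06 to 4.43) and 7.12 (5.74 to 8.91), where 18.1%, 24.2%, 19.3% and 11.9% of all genes were higher by 1.5-fold. After thinning, the share with an Atf3 UMI was 8.03%, 1.01%, 2.11% and 0.748% in the former and 10.9%, 7.23%, 8.97% and 6.25% in the latter.

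The higher Atf3 of expanded clonotypes did not rest on 1 clonotype. Each clonotype counted once, the ratios were 2.23, 6.07, 2.91 and 7.65, and without the clonotype with the most Atf3 UMIs they were 1.70, 6.78, 3.51 and 6.83. Atf3 exceeded the level of unexpanded barcodes in 37 of 67, 24 of 42, 76 of 126 and 85 of 128 expanded clonotypes. In experiment 1 the expanded clonotypes differed less than the others between the libraries: 47.6 against 27.7 CPM (1.72-fold lower), compared with 27.6 against 3.63 (7.61-fold lower) in unexpanded barcodes.

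Among barcodes without a myeloid UMI, Fos ran against Atf3 in 3 of the 4 libraries. Over all CD8 T barcodes it did so in buffer and the 10 mg/kg library, while at 1.25 mg/kg it stood at 394 CPM in unexpanded and 474 in expanded barcodes. Without a myeloid UMI it stood at 435, 251 and 142 CPM in unexpanded barcodes of the buffer and both rhIL-7-hyFc-only libraries and at 164, 118 and 85.5 in expanded clonotypes, 2.64-, 2.12- and 1.66-fold lower, where 10.7%, 11.6% and 11.7% of all genes were lower. With the TCE it was higher in expanded clonotypes, at 54.0 and 87.8 (ratio 1.63, 1.51 to 1.75), and so were Fosb, at 50.1 and 89.6, and Jund, at 954 and 1710. Jund was higher in expanded clonotypes at 1.25 mg/kg, too, at 933 and 1525 (ratio 1.63). Its ratio was 1.14 in buffer and 1.41 at 10 mg/kg. In the TCE library 6 members were higher and 0 lower in expanded clonotypes, where 11.9% and 8.21% of all genes were. Among barcodes without a myeloid UMI, the gap in Fos between the libraries of experiment 2 lay in the unexpanded barcodes (142 and 54.0, 2.62-fold lower). Expanded clonotypes stood at 85.5 and 87.8 there (ratio 1.03, 0.95 to 1.11). Over all CD8 T barcodes Fos was lower with the TCE in both, at 394 and 66.1 CPM in unexpanded and 474 and 136 in expanded barcodes.

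**Figure D5:**
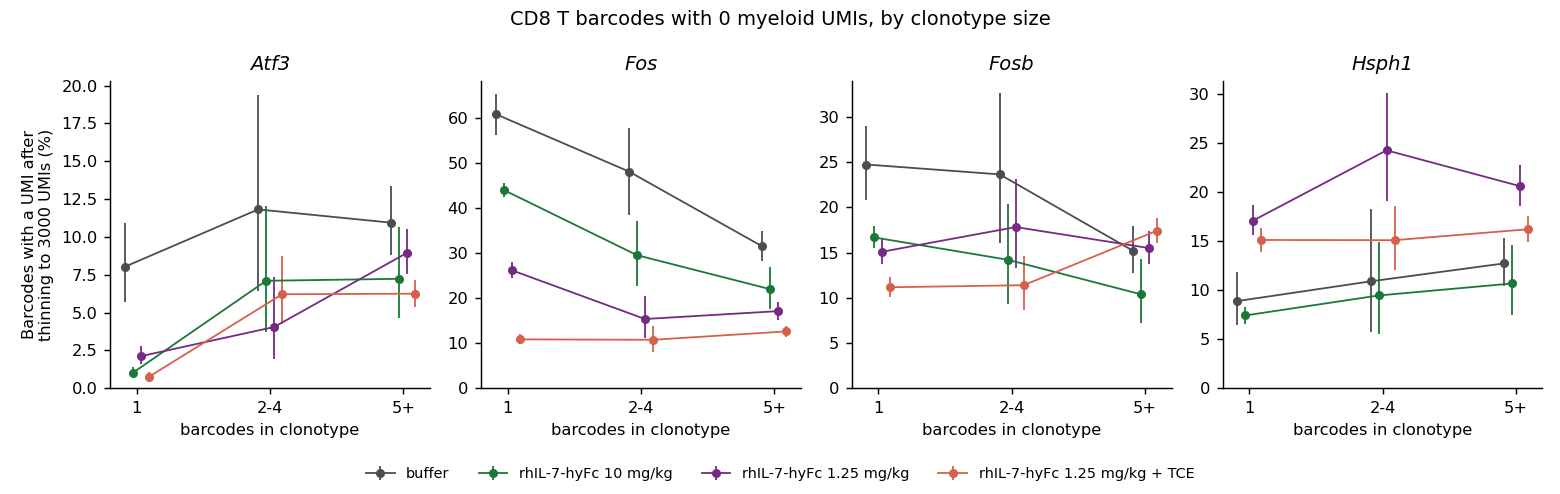
Percent of CD8 T barcodes without a myeloid UMI that held a UMI of Atf3, Fos, Fosb or Hsph1 after thinning to 3000 UMIs, by the number of barcodes in their clonotype, for the 4 libraries. Bars are exact 95% binomial intervals. Between clonotypes of 1 and of 5 or more, Atf3 goes from 1.01% to 7.23% in the 10 mg/kg library and Fos from 61% to 31.5% in buffer.

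The HSP70 pair had no common direction with expansion. It stood at 76.4, 8.75, 60.5 and 23.7 CPM in unexpanded barcodes and at 48.3, 4.68, 90.6 and 64.0 in expanded clonotypes, 1.58- and 1.87-fold lower in experiment 1 and 2.70-fold higher with the TCE. The 1.25 mg/kg library fell just short of the rule (interval of the ratio 1.37 to 1.64). In buffer 1 clonotype of 16 barcodes held 35.2% of the Hspa1a UMIs of all expanded clonotypes. Over all CD8 T barcodes the buffer ratio of Hspa1a turned from a log2 of -0.60 to 0.40.

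The lower HSP70 level after rhIL-7-hyFc 10 mg/kg was present in each state examined, among barcodes without a myeloid UMI. The pair was 9.78-fold lower in barcodes without a UMI of Pdcd1, the gene of the receptor PD-1, and 1.90-fold lower in those with one. It was 5.27-fold lower in barcodes with a UMI of the cycling genes Mki67 or Top2a, 4.52-fold lower in those without, 8.74-fold lower in unexpanded barcodes and 10.3-fold lower in expanded clonotypes. The last value rests on few barcodes: Hspa1a stood at 40.8 and 3.79 CPM over 777 and 318 expanded barcodes. In each library 1 clonotype held a large part of these Hspa1a UMIs, at 35.2% and 35.3%. Atf3 was 16.4-fold lower without Pdcd1 (74.1 and 4.51 CPM) and 1.88-fold lower with it (42.2 and 22.4).

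The split by Pdcd1 was also made in experiment 2, again among barcodes without a myeloid UMI. Without a Pdcd1 UMI, Fos stood at 144 and 54.3 CPM (2.65-fold lower), Atf3 at 20.3 and 6.05 (3.36-fold lower) and the HSP70 pair at 86.9 and 37.2 (2.34-fold lower). With a Pdcd1 UMI the same genes stood at 111 and 77.4, 47.5 and 26.2, and 62.9 and 51.3, of which Atf3 alone was past 1.5-fold (1.81-fold lower). Whether the states differ in their response was not tested, since each holds 1 library per group.

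Other genes of the same families were described by their counts. In the CD8 T barcodes of experiment 1, 8 of 18 other AP-1 family genes were lower and 0 higher, among them Batf3 (6.54 and 1.18 CPM, 5.55-fold lower) and Fosl1 (4.17-fold lower). Of 32 other heat shock genes 9 were lower and 0 higher: Serpinh1, the collagen chaperone, went from 455 to 10 UMIs, Hspb1 was 7.87-fold lower and Hsf2, a heat shock factor, 2.91-fold lower. Against the 21.4% of all genes that were lower, the share of the heat shock list was near the background. Of 19 genes of the endoplasmic reticulum and integrated stress response 8 were lower and 0 higher, with Asns 6.84-fold and Trib3 3.29-fold lower, both known targets of ATF4. Without myeloid UMIs, where 20.2% of all genes were lower, 5 of 16 other AP-1 genes, 9 of 32 heat shock genes and 6 of 18 stress genes of the endoplasmic reticulum were lower and 0 higher.

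Genes of an enzyme digestion signature moved in both directions in experiment 1. Of 24 such genes, 9 were lower, 2 higher and 13 neither, where 21.4% of all genes were lower and 6.33% higher. Their median log2 ratio was -0.32 against -0.21 for all genes. They overlap the members' families, and Hspb1, Mt2 (6.47-fold lower) and Ier3 (6.05-fold lower) led them. Of 34 other immediate early genes 10 were lower and 3 higher, at a median of -0.08, with Dusp4 3.59-fold and Rhob 2.49-fold lower. Without myeloid UMIs, 6 of 23 digestion genes and 7 of 33 immediate early genes were lower and 3 and 5 were higher. Of all genes, 20.2% were lower and 6.97% higher there. The digestion was the same by protocol in all libraries, and its part in these levels was not tested.

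In experiment 2, 8 of 24 digestion genes were lower and 1 higher in CD8 T barcodes with the TCE, and 8 of 34 other immediate early genes were lower and 0 higher. Of all genes, 9.01% were lower and 2.54% higher. The median log2 ratios of the 2 lists were -0.46 and -0.39 against 0.08 for all genes. Ier3 was 3.86-fold lower, Zfp36 2.35-fold, Rhob 2.32-fold and Egr2 4.6-fold. Of 31 other heat shock genes 2 were lower (among them Hspb1, 1.58-fold) and 0 higher, at a median of -0.01, and Hsp90aa1 stood at 584 and 400 CPM (1.46-fold lower). Against the 9.01% of all genes that were lower, the share of the heat shock list was near the background. Without myeloid UMIs the digestion genes numbered 5 lower and 2 higher of 23 and the immediate early genes 6 lower and 0 higher of 33. Of all genes, 3.52% were lower and 1.70% higher there.

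Of the remaining AP-1 genes in experiment 2, 5 of 18 were lower and 0 higher, among them Batf2 (4.07-fold) and Maf (3.68-fold). Ddit3, the stress factor CHOP, stood at 40.8 and 19.2 CPM (2.13-fold lower). Together with Calr (1.71-fold lower) and Sdf2l1 (1.53-fold lower) it made 3 of 18 stress genes of the endoplasmic reticulum lower and 0 higher. Without myeloid UMIs, where 3.52% of all genes were lower, 2 of 15 other AP-1 genes and 3 of 31 other heat shock genes were lower and 0 higher, and of the 18 stress genes 1 was lower and 1 higher.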

How the data were processed

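Libraries were made with a droplet 5' gene expression kit and a matching T cell receptor kit, per the labels' protocols. The authors deposited whole-number UMI counts per gene and barcode; the file headers name Cell Ranger 4.0.0 for experiment 1 and 6.1.2 for experiment 2, and the submitters' processing notes name GRCm38. Receptor contig tables gave the clonotypes.

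Barcodes with at least 500 genes and under 10% mitochondrial UMIs were kept. UMIs were summed per library and gated population, and divided by the summed total and scaled to 1000000 (CPM). Intervals are exact, 95%, and cover counting error only. Doublets were not called, since no doublet caller was run. Levels per barcode were compared after random thinning to 3000 UMIs, which left out 692, 187, 575 and 424 shallower CD8 T barcodes and 25, 8, 61 and 12 myeloid ones. The computations used Python 3.11.15 with numpy 2.4.6, scipy 1.17.1 and pandas 2.3.3, and edgeR 4.0.16 for TMM factors alone. The ratio and its calls were tested on simulated Poisson counts with known ratios. That setting has no spread between barcodes or between libraries, so it checks the computation and not the error of these data.

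The members and all gene lists were chosen with earlier results of these data known. Named besides the members are, from each list, the 3 genes with the largest absolute log2 ratio in CD8 T barcodes at 5 CPM or more, and the 8 genes most correlated with each group. Some genes that this rule names are not reported here. The splits by myeloid UMI at 0, the threshold of 10 HSP70 UMIs and the clonotype checks were chosen after seeing the data. Promoter sequences are from RefSeq on GRCm38.p6, gene coordinates from GENCODE M21 on GRCm38.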

Additional observations from a re-analysis of the deposited data

Results flagged for a closer look

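Hspa1b moved in opposite directions in the 2 cell types of experiment 1. Its log2 ratio, rhIL-7-hyFc 10 mg/kg over buffer, was -2.57 in CD8 T barcodes (492 and 123 UMIs) and 0.98 in myeloid barcodes (11 and 37 UMIs). The difference between the cell types was not tested, as each value comes from 1 library per group. The myeloid value was -0.19 without the 1% of barcodes with the most Hspa1b UMIs and -0.12 among barcodes with at least 1 C1q UMI.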

How the results depend on the processing

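No paired analysis was possible because each group has 1 library, and no replicate could be left out for the same reason. The number of members lower or higher in CD8 T barcodes stayed within 1.5 times its value under every alternative run. In the myeloid barcodes of experiment 1, the number higher went from 1 to 0 without the top 1% of barcodes and with at least 1 C1q UMI, and the log2 ratio of Hspa1b from 0.98 to -0.19 and -0.12. In those of experiment 2, the number lower went from 3 to 1 with at least 10 myeloid UMIs and to 6 with at least 1 C1q UMI, where the number higher was 0. In the TCE library, the number lower in myeloid than in CD8 T barcodes went from 1 to 2 as a mean over barcodes and to 3 with at least 1 C1q UMI. Pairs of members with a correlation of at least 0.1 in all 4 libraries went from 8 to 5 when barcodes were thinned to 1500 UMIs. Over all CD8 T barcodes, the log2 ratio of expanded over unexpanded clonotypes turned from -0.60 to 0.40 for Hspa1a in buffer and from -0.73 to 0.27 for Fos with rhIL-7-hyFc 1.25 mg/kg. The cause of these shifts was not tested.

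Fos in experiment 1 fell short of 1.5-fold at under 5 myeloid UMIs (log2 -0.41), with at least 2 Cd8 and 2 Cd3 UMIs (-0.36), with no myeloid UMI (-0.35) and with TMM factors (-0.48). Jun did so in experiment 1 with the stricter gate and with TMM factors (both -0.54), and in experiment 2 at under 5 and at 0 myeloid UMIs (-0.58 and -0.39). TMM factors raised every log2 ratio of experiment 1 CD8 T barcodes by 0.27. Atf3 in experiment 1 went from -2.36 to -1.65 with each clonotype counted once and to -3.41 without its top 1% of barcodes, and in experiment 2 from -2.02 to -3.28 with each clonotype counted once. Of 581 gene-level alternatives, 362 left the value in place, 215 moved it and 4 reversed it, and 26 took a ratio back under 1.5-fold. The 123, 128 and 73 myeloid barcodes of 3 libraries limit the myeloid ratios.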

Other observations

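Levels of Jund and the split of the HSP70 pair are set side by side for the 2 experiments, as a description with no ratio. Jund stood at 310 and 285 CPM in the CD8 T barcodes of experiment 1 and at 1162 and 1327 in those of experiment 2, and at 222, 214, 748 and 952 in myeloid barcodes. Reads of the HSP70 pair were divided in another way too: Hspa1a and Hspa1b had 2042 and 492 UMIs in buffer and 501 and 123 at 10 mg/kg, but 6384 and 4913 at 1.25 mg/kg and 2308 and 2128 with the TCE. Dose, day of collection, way of sorting, Cell Ranger version and number of genes counted all changed between the experiments, and they cannot be told apart.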
